A study of Rattus norvegicus with 2 samples.

Results

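Platelet-derived growth factors (PDGFs) and their receptors were followed in cultures of oligodendrocyte precursor cells (OPCs) from rat brain, a proliferating glial population from which the myelin-forming oligodendrocytes develop. The 6 members, taken by exact gene symbol from a deposited table of 17202 genes, were the receptor genes Pdgfra and Pdgfrb and the ligand genes Pdgfa, Pdgfb, Pdgfc and Pdgfd, and all 6 had a row. The Aβ group was wild-type (WT) rat brain OPCs given amyloid-beta, the main peptide of Alzheimer plaques, at 1 µM for 2 days. The control group was OPCs of the same kind labelled DMSO, a solvent, and the text that gives the 2 days describes Aβ alone. Each group was 1 library, and the labels do not say how many animals or cultures it holds. They speak of adult OPCs in one place and of developing rats in another, and the titles of the samples contain a P1 that nothing explains.

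PDGFs are secreted as pairs of chains that bring receptors together at the cell surface, where these tyrosine kinases phosphorylate each other and recruit adaptors of the Ras, PI3K and phospholipase C routes. The α receptor, encoded by Pdgfra, binds the A, B and C chains, and the β receptor, encoded by Pdgfrb, binds the B and D chains. In the developing brain PDGF-A from astrocytes and neurons keeps OPCs dividing through the α receptor, which is lost as they mature, whereas the β receptor is best known from pericytes, which answer PDGF-B from endothelium. With no replicate, no test was run, and every difference below is between 2 libraries. Intervals are 95% and cover counting error only.

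The promoter windows of the 3 members whose ratios are described at most length are shown first. They give the bases around the annotated start of the abundant receptor gene and of the 2 ligand genes with the most counts. The windows run from 250 bases before to 50 bases after the start that RefSeq gives in assembly GRCr8, at chr14:33408467-33408766 on the minus strand for Pdgfra, chr12:20759116-20759415 on the plus strand for Pdgfa and chr2:168614918-168615217 on the plus strand for Pdgfc. Capitals mark matches to short motifs on either strand.
Pdgfra: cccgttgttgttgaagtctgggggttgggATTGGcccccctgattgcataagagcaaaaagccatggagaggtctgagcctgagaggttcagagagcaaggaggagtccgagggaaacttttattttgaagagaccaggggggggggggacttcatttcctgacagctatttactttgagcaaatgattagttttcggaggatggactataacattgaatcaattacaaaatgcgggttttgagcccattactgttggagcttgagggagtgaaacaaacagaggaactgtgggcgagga
Pdgfa: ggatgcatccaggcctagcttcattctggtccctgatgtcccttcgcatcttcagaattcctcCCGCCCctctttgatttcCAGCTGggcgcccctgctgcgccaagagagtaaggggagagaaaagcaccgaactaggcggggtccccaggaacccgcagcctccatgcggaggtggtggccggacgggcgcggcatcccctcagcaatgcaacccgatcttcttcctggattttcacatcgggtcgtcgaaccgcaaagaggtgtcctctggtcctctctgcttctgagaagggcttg
Pdgfc: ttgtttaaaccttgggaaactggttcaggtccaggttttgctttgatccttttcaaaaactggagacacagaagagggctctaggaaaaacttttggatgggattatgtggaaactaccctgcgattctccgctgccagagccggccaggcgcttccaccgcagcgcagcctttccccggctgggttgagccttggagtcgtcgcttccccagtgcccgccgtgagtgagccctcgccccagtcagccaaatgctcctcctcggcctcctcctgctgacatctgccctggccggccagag
The motifs searched were the GC box GGGCGG, the TATA box TATAAA, the CCAAT box CCAAT, the E-box CAGCTG, the Sox core ACAAT and the AP-1 site TGACTCA, with their reverse complements. No motif contains another. The Pdgfra window held 1 CCAAT box, a motif found in 37.5% of 33469 rat promoter windows of this length. The Pdgfa window held 1 GC box and 1 E-box, found in 33.1% and 15.1% of windows, and the Pdgfc window held none of the 6. In the Pdgfc window the 50 bases after the start begin with ATG, the letters of a start codon. Whether that start is the start of the transcript was not tested, so this window may not be a promoter like the others. The remaining motifs were found in 14.2% (TATA box), 33.7% (Sox core) and 4.63% (AP-1 site) of windows. The Pdgfra window was 48.0% G and C with 5 CpG, against 60.0% with 17 CpG for Pdgfa and 58.0% with 14 CpG for Pdgfc, where the median of all windows was 51.7% with 7 CpG. Windows were also given for Pdgfd (60.0%, 12 CpG) and Pdgfb (62.0%, 22 CpG), so that the windows of all 4 ligand genes had more G and C than that of the α receptor gene. The Pdgfrb promoter is not shown.

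The libraries were of like depth, at 15117102 (Aβ) and 15019416 (DMSO) estimated counts. Genes that reached 1 CPM (counts scaled to library size) in either library counted as measured, and these were 13510, with a median log2 ratio of -0.00073 and 49.7% of ratios above 1. OPC markers were well represented, with summed levels of 2254 TPM (transcript abundance scaled to length and library, a level per length) for Aβ and 2178 TPM for DMSO over 11 genes. Astrocyte markers summed to 1867 TPM and 1775 TPM over 10 genes, led by the filament gene Gfap at 838.5 TPM and 792.7 TPM, and neuronal markers to 922 TPM and 887 TPM over 11 genes, led by the tubulin Tubb3 at 371.5 TPM and 352.8 TPM. Mature oligodendrocyte markers reached 84.6 TPM and 84.8 TPM over 10 genes. Of the vascular lists, pericyte and smooth muscle markers summed to 40.9 TPM and 37.2 TPM over 11 genes, fibroblast markers to 80.5 TPM and 84.0 TPM over 9, and endothelial markers to 3.15 TPM and 2.50 TPM over 8, while the 10 microglial markers summed to 13.9 TPM and 16.3 TPM. Ratios above 1 were found for 9 of 11 measured OPC markers, 5 of 9 astrocyte, 5 of 11 neuronal and 3 of 8 oligodendrocyte ones. For the remaining lists these were 4 of 6 pericyte, 2 of 5 fibroblast, 3 of 4 endothelial and 0 of 5 microglial markers. The part of other cells in the member ratios was not tested.

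The α receptor was by far the most abundant member. Pdgfra had 227.9 TPM in the Aβ library and 205.6 TPM in the DMSO library, from 15053 and 13851 counts. These levels placed it at rank 629 and rank 705 of all genes in the table. The β receptor gene, Pdgfrb, had 1.81 TPM with Aβ and 1.92 TPM with DMSO, from 97 and 106 counts. Pdgfra thus took 99.2% of the receptor TPM with Aβ and 99.1% with DMSO, and its level exceeded that of Pdgfrb by 126-fold and 107-fold. The low Pdgfrb level stood beside pericyte and smooth muscle markers of mixed levels. Rgs5 had 0 and 1 counts with Aβ and DMSO, Acta2 1 and 1, Abcc9 7 and 7, Vtn 10 and 11 and Kcnj8 11 and 4, while Des had 31 and 24, Tagln 40 and 27, Anpep 133 and 146, and Myh11 217 and 221. The list was led by Mcam at 17.7 TPM and 16.9 TPM and by Notch3 at 7.46 TPM and 6.52 TPM. The part of such cells in the Pdgfrb level was not tested.

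Among ligands the C chain led, followed by the A chain. Pdgfc, whose product is secreted with a CUB domain that proteases must remove, had 15.1 TPM with Aβ and 17.7 TPM with DMSO, from 128 and 152 counts. Pdgfa, the chain known as the OPC mitogen, had 5.04 TPM with Aβ and 6.93 TPM with DMSO, from 68 and 96 counts. Both lay lower in the Aβ library, and for both the counting intervals of the levels overlapped between libraries. Pdgfd, the other CUB-domain chain, had 0.470 TPM with Aβ and 0.180 TPM with DMSO, from 5 and 2 counts. Pdgfb, the chain that binds both receptors, had 0 counts with Aβ and 1 count with DMSO, and a count of 0 allows up to 3 counts, or 0.198 CPM. At this depth neither Pdgfd nor Pdgfb, both under 1 CPM, could be compared between libraries.

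Pdgfc made up 73.3% of the ligand TPM with Aβ and 71.2% with DMSO, Pdgfa 24.4% and 27.8%, and Pdgfb and Pdgfd together 2.28% and 1.00%. The order of the members was the same in both libraries, from Pdgfra through Pdgfc, Pdgfa, Pdgfrb and Pdgfd to Pdgfb. Counting intervals of neighbours in this order did not overlap in either library, except those of Pdgfd and Pdgfb. With Aβ these were 0.153 to 1.10 TPM for Pdgfd and 0 to 0.214 TPM, the level of 3 counts, for Pdgfb, and with DMSO they were 0.0218 to 0.650 TPM and 0.00177 to 0.390 TPM. The level of Pdgfra was 11.0 times that of the 4 ligand genes together with Aβ and 8.25 times with DMSO.

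**Figure D1:**
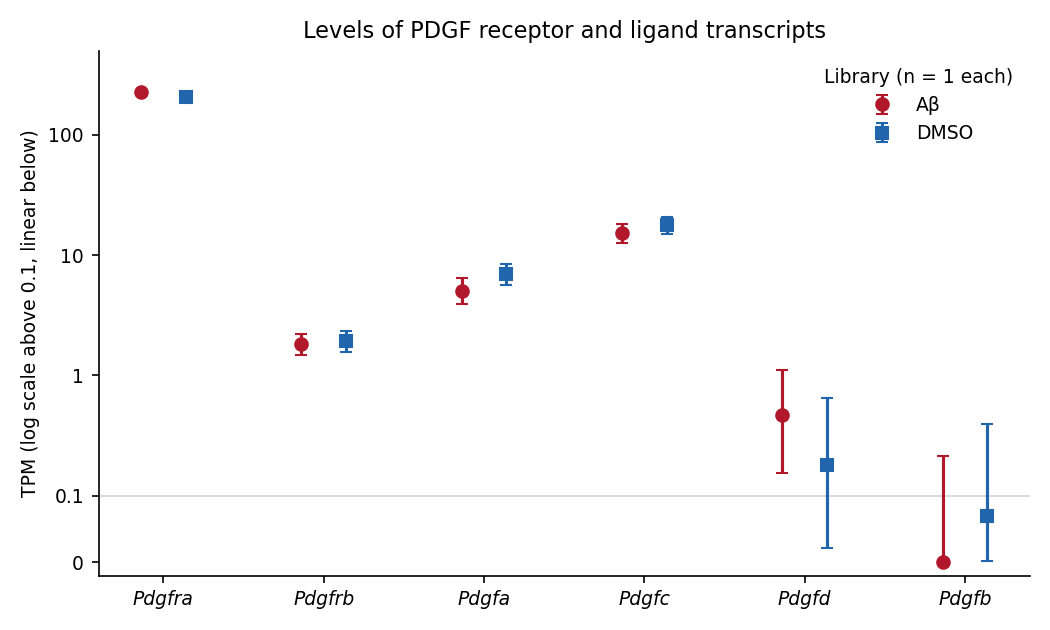
Level in TPM (log axis above 0.1, linear below) of each member in the Aβ library (circles) and the DMSO library (squares), with bars for 95% Poisson counting intervals (up to 3 counts where the count is 0). Pdgfra stands at 227.9 TPM and 205.6 TPM, Pdgfc and Pdgfa follow, and Pdgfd and Pdgfb lie under 1 TPM with overlapping intervals.

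Between the libraries, the α receptor gene was slightly higher with Aβ and the A chain gene was lower. Pdgfra stood at 994.9 CPM with Aβ and 923.0 CPM with DMSO, with a ratio of 1.08 (1.05 to 1.10) and a log2 ratio of 0.11. Pdgfa stood at 4.49 CPM with Aβ and 6.40 CPM with DMSO, with a ratio of 0.703 (0.507 to 0.969) and a log2 ratio of -0.47. The interval left out 1 for these members and held it for the others with a ratio. Pdgfc stood at 8.46 CPM with Aβ and 10.1 CPM with DMSO (ratio 0.835, 0.655 to 1.06), and Pdgfrb at 6.41 CPM with Aβ and 7.06 CPM with DMSO (ratio 0.908, 0.682 to 1.21). Pdgfd, at 5 and 2 counts, had a ratio of 2.48 with an interval from 0.406 to 26.0, and for Pdgfb no ratio was formed.

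A difference was called when the log2 ratio, taken with 0.5 CPM added on both sides, was past 2-fold and the counting interval left out 1. This rule took 0.696% of measured genes (0.266% higher and 0.429% lower with Aβ) and none of the 4 measured members. Of the 94 genes it took, 87.2% had fractional counts, and among the 11726 genes with whole counts it took 0.102%. At 1.2-fold the same rule took 2.32% of measured genes as higher and 2.37% as lower with Aβ, and 1 of the 4 measured members, Pdgfa, as lower. Among genes with whole counts, as Pdgfa is, the 1.2-fold rule took 3.23% in either direction. Since the members were chosen with these values known, the count is a description. Pdgfd and Pdgfb did not pass the level filter.

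**Figure D2:**
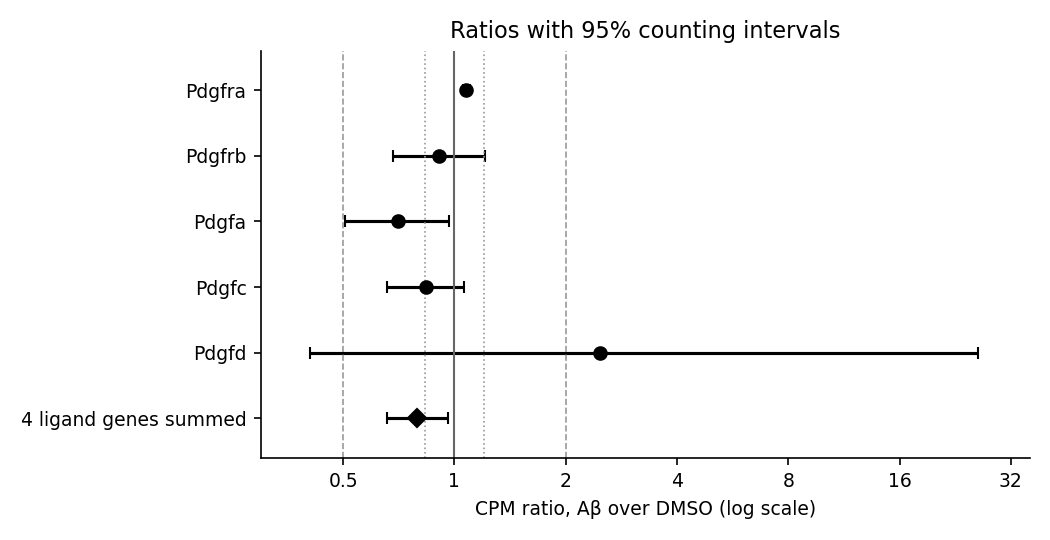
CPM ratio of Aβ over DMSO (log axis) for the members with a ratio and for the 4 ligand genes summed, with bars for 95% counting intervals; dotted lines mark 1.2-fold and dashed lines 2-fold. The intervals of Pdgfra, Pdgfa and the ligand sum leave out 1, and none lies wholly past 2-fold. The sum is nearly all from Pdgfa and Pdgfc, and the interval of Pdgfc alone holds 1.

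Set against genes of like level, Pdgfra and Pdgfa lay towards the edge and Pdgfc and Pdgfrb did not. Of 226 other genes within 2-fold of the mean CPM of Pdgfra, 4.87% lay at least as far from a log2 ratio of 0 and 2.21% at least as high. Among the 230 genes at 500 CPM or more, Pdgfra had the 6th highest log2 ratio, in a range of -0.20 to 0.18. Of 2156 genes near the level of Pdgfa, 6.86% lay at least as far from 0 and 3.76% at least as low. For Pdgfc 19.8% of 2896 genes, and for Pdgfrb 52.6% of 2443 genes, lay at least as far from 0. These shares describe this pair of libraries, and the genes of like level were not matched for transcript length. Ratios rose slightly with length, as described below. With that trend removed from the member alone, Pdgfra had a log2 ratio of 0.080. The 95th percentile of the genes near its level was 0.084, with their trend left in. Pdgfa had -0.45, against a 5th percentile of -0.42. The part of length in these positions was not tested.

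**Figure D3:**
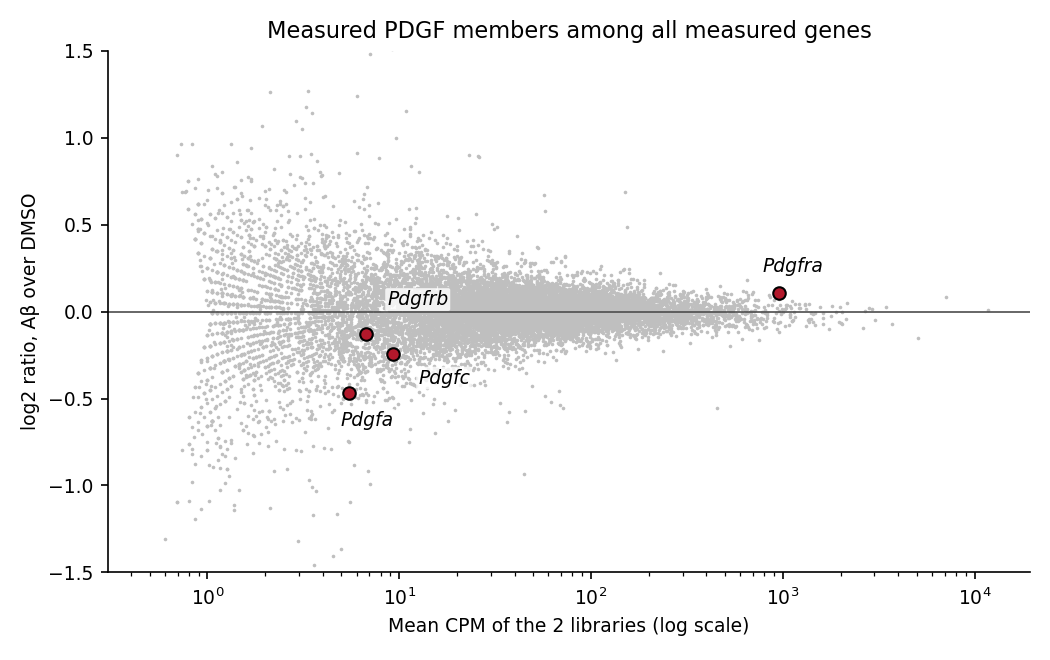
log2 ratio of Aβ over DMSO against the mean CPM of both libraries (log axis) for measured genes (grey), with the 4 measured members in red; 63 genes lie beyond the axis limits of 1.5. Pdgfra lies near the upper edge of the narrow cloud of abundant genes, and Pdgfa near the lower edge of the wide cloud of low genes.

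Taken as a group, the ligand genes numbered 201 counts in the Aβ library against 251 in the DMSO library (ratio 0.794, 0.656 to 0.960). Their summed level was 20.7 TPM with Aβ and 24.9 TPM with DMSO. Pdgfa and Pdgfc, both ligands of the α receptor, had 196 and 248 counts, a ratio of 0.784 (0.647 to 0.949). This pair was summed after its values were seen. The receptor genes had 15150 counts with Aβ and 13957 with DMSO (ratio 1.08, 1.05 to 1.10), nearly all of them from Pdgfra. In bulk RNA, fewer cells of a type and less RNA per cell cannot be told apart. Pdgfrl, the receptor-like gene that is no member, had 3.55 TPM and 3.66 TPM (ratio 0.949, 0.613 to 1.47).

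Over all measured genes with whole counts, ratios rose slightly with transcript length. The length implied by counts and FPKM (fragments scaled to transcript length and library size) was 6220 bases for Pdgfra and 5065 bases for Pdgfrb, against 1275 bases for Pdgfa and 794 bases for Pdgfc. Among measured genes with whole counts, the median log2 ratio was 0.032 for the 1650 genes of 5000 bases or more, of which 64.6% lay above a ratio of 1, and -0.022 for the 1651 genes under 1000 bases, of which 41.9% did. At the lengths of the members a smooth trend gave 0.028 for Pdgfra, 0.021 for Pdgfrb, -0.012 for Pdgfa and -0.018 for Pdgfc. With that trend removed, a step added once the data had been seen, log2 ratios were 0.080 for Pdgfra, -0.15 for Pdgfrb, -0.45 for Pdgfa and -0.23 for Pdgfc. The trend was fitted to genes with whole counts, which leaves out Pdgfra, and the part of length in the differences was not tested.

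**Figure D4:**
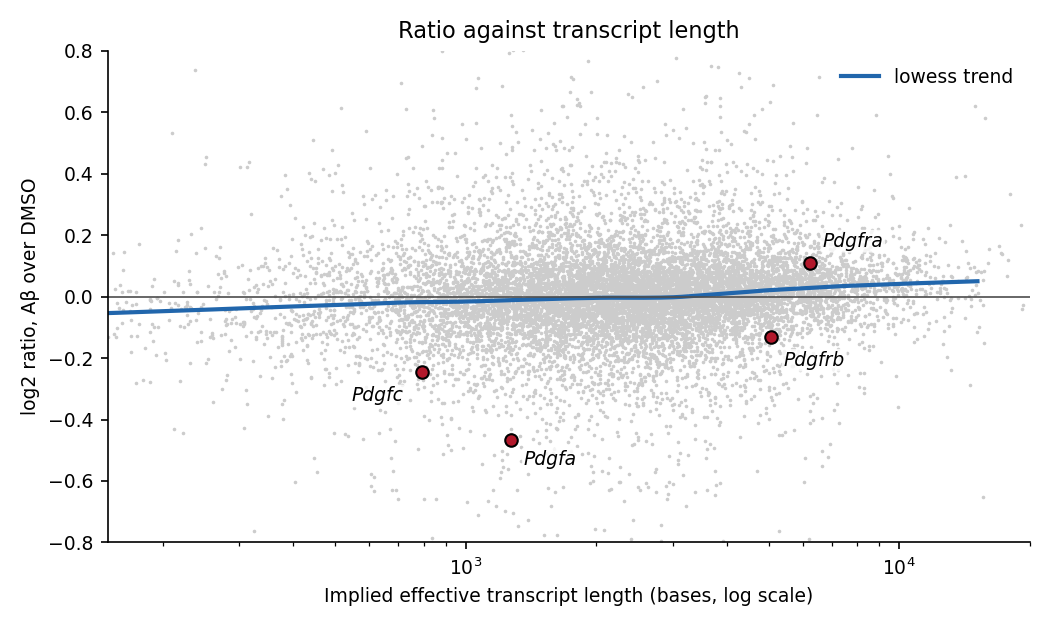
log2 ratio of Aβ over DMSO against implied effective transcript length (log axis) for measured genes with whole counts (grey), with a lowess trend (line) and the 4 measured members in red; 85 genes lie beyond the axes. The trend rises with length, Pdgfra lies above it, and Pdgfrb, Pdgfa and Pdgfc lie below it.

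The counting of Pdgfra carries a limit that the other members do not. Its deposited estimate was not a whole number in either library, as for 13.4% of genes in the table, which can arise when reads that match several genes are divided. No other row carries a Pdgfra symbol, and rows of other symbols were not searched for a near-copy, so Pdgfra was summed with none. Whether counting used strand is not stated in the labels or headers, and reads of an antisense transcript could not be told apart.

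Genes closest to Pdgfra in level, by distance in log2(TPM + 1) over the 2 libraries, were the cochaperone Dnajc7 (224.9 TPM with Aβ and 208.0 TPM with DMSO), the actin regulator Nckap1 (227.0 TPM and 210.4 TPM) and the RNA-binding gene Ewsr1 (222.7 TPM and 204.7 TPM). For Pdgfa they were Lingo3 (4.85 TPM and 6.92 TPM), the sodium-proton exchanger Slc9a9 (5.28 TPM and 6.79 TPM) and the AP-1 subunit Fosl1 (4.77 TPM and 6.97 TPM). With 2 libraries this likeness amounts to a level and a ratio.

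Measured genes beside the members on the chromosome, in the gene order of GRCr8, were looked up after the member values were seen. On either side of Pdgfra lie Kit, the related receptor for stem cell factor, and Gsx2, a homeobox gene. Kit had 6.76 TPM with Aβ and 6.88 TPM with DMSO (ratio 0.964, 0.829 to 1.12), and Gsx2 had 9.56 TPM and 10.8 TPM (ratio 0.864, 0.624 to 1.19). Chic2, beyond Gsx2, had 38.6 TPM and 32.5 TPM (ratio 1.16, 0.971 to 1.40). Pdgfra stood 33.7-fold above Kit in TPM with Aβ and 29.9-fold with DMSO. Pdgfa lies between Prkar1b, at a ratio of 0.983 (0.903 to 1.07), and Fam20c, at 0.998 (0.896 to 1.11). Pdgfc lies between Glrb, at 0.948 (0.877 to 1.03), and Ctso, at 1.09 (0.870 to 1.37), and the intervals of these genes beside Pdgfra, Pdgfa and Pdgfc held 1. Beside Pdgfrb, Camk2a stood at 1.33 (1.03 to 1.72) and Csf1r at 0.932 (0.613 to 1.42), and beside Pdgfb, Cbx7 stood at 0.903 (0.660 to 1.23) and Rpl3 at 0.974 (0.956 to 0.991). The intervals of Camk2a and Rpl3 left out 1. Beside Pdgfd, Casp4 stood at 0.916 (0.753 to 1.11) and Dync2h1 at 1.05 (0.974 to 1.13).

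Around the members, 10 lists of pathway genes held 163 measured genes, each counted once, of which 85 lay above a ratio of 1 and 78 below. Their median log2 ratio was 0.0065, beside -0.00073 for all measured genes. By the rule with 0.5 CPM added, none was past 2-fold, and 2.45% were past 1.2-fold, beside 4.69% of all measured genes. Those past 1.2-fold were St14, Shc3 and Foxo3, higher with Aβ, and Fosl1, lower with Aβ. St14 had a log2 ratio of 0.96 by this rule, and a ratio of 3.37 without the added CPM.

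Of 13 measured genes that process or bind PDGFs, 6 lay above 1 and 7 below. The list median was -0.0034 (log2). In this list and those below, levels are in TPM and ratios are of CPM. TPM placed the median log2 ratio of all measured genes at 0.037, and for a gene near 1 the level and the ratio can differ in direction. St14, the protease matriptase, which can activate PDGF-D, had 0.560 TPM with Aβ and 0.160 TPM with DMSO from 17 and 5 counts (ratio 3.37, 1.19 to 11.7). Plat, tissue plasminogen activator, which cleaves PDGF-C, was at 118 TPM and 110 TPM (1.04, 0.990 to 1.10, fractional counts). Plau, urokinase, which cleaves PDGF-D, had 4.67 TPM with Aβ and 6.10 TPM with DMSO (0.746, 0.553 to 1.00). Pcsk5, a proprotein convertase, had 1.42 TPM and 0.980 TPM (1.41, 0.977 to 2.05), and Sparc, a matrix protein that binds PDGF-B, 235 TPM and 236 TPM (0.971, 0.931 to 1.01).

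Receptor-proximal genes divided evenly, with 15 of 30 measured above 1 and a median of -0.0038. The interval lay wholly within 1.5-fold for 27 of them. Shc3, an adaptor that links receptors to Ras, had 12.2 TPM with Aβ and 9.38 TPM with DMSO (1.27, 1.03 to 1.57). Fyn, a Src-family kinase, was at 272.6 TPM and 272.2 TPM (0.976, 0.944 to 1.01) and Stat3 at 178 TPM and 166 TPM (1.04, 1.01 to 1.08). The adaptor Nck1 stood at 1.13 (0.978 to 1.31) and Grb10, which binds activated receptors, at 0.775 (0.524 to 1.14).

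Ras to ERK genes lay within a log2 range of -0.095 to 0.11, with 7 of 13 above 1 and a median of 0.0039. The GTPase Nras had 147 TPM with Aβ and 138 TPM with DMSO, while its CPM ratio lay the other way at 0.982 (0.944 to 1.02). Mapk3, encoding ERK1, stood at 0.968 (0.906 to 1.03), and the ERK-activated kinases Rps6ka3 and Rps6ka2 at 1.08 (0.998 to 1.16) and 0.936 (0.830 to 1.06). The ERK feedback list, which also holds the ETS factors Etv1, Etv4 and Etv5, had 4 of 12 genes above 1 and a median of -0.043. Of these, Etv4, an ETS factor, had 27.4 TPM with Aβ and 30.5 TPM with DMSO (0.874, 0.781 to 0.978), and Spry2, an inhibitor of receptor signalling, 86.0 TPM and 87.0 TPM (0.982, 0.919 to 1.05). Etv5 stood at 0.966 (0.910 to 1.03), Spry4 at 0.912 (0.799 to 1.04) and the ERK phosphatase Dusp4 at 1.33 (0.872 to 2.04).

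Of 18 measured PI3K, AKT and mTOR genes, 15 lay above 1 and 3 below, and the list median was 0.046. With the length trend removed these were 14 and 4, with a median of 0.032. The interval lay wholly above 1 for 1 gene, Foxo3, and wholly below 1 for 0. Of all measured genes, 49.7% lay above 1. Akt1, the kinase downstream of PI3K, had 173 TPM with Aβ and 158 TPM with DMSO (1.04, 0.989 to 1.09). Foxo3, a transcription factor that AKT keeps out of the nucleus, stood at 1.23 (1.01 to 1.503), Foxo4 at 1.08 (0.984 to 1.19) and Rheb, which activates mTOR, at 0.976 (0.898 to 1.06).

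Early growth factor-induced genes lay the other way, with 1 of 14 above 1, 13 below and a median of -0.050. With the length trend removed these were 2 and 12, with a median of -0.047. The interval lay wholly below 1 for 1 gene, Fosl1, and wholly above 1 for 0, and it lay within 1.5-fold for 12 of the 14. Of all measured genes, 49.7% lay above 1. Fosl1 stood at 0.668 (0.484 to 0.917) and Ier3, a survival gene, at 0.859 (0.700 to 1.05). The abundant members were close to 1, with Ccnd1, cyclin D1, at 92.6 TPM with Aβ and 92.9 TPM with DMSO (0.968, 0.924 to 1.02) and Fos at 59.6 TPM and 59.4 TPM (0.978, 0.886 to 1.08). The gene above 1 was Ccl2, a chemokine, with 18 and 16 counts (1.12, 0.537 to 2.34).

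Receptor turnover genes, with 8 of 20 above 1, had a median of -0.0099. Ptpn1, a phosphatase that removes phosphate from receptors, had 33.9 TPM with Aβ and 27.6 TPM with DMSO (1.195, 1.05 to 1.36), just under 1.2-fold on the log2 scale with the added 0.5 CPM. Ift20, of the transport machinery of cilia, where the α receptor can sit, had 48.3 TPM with Aβ and 55.0 TPM with DMSO (0.857, 0.747 to 0.983). Socs1, an inhibitor of cytokine signalling, had 10 and 20 counts (0.496, 0.207 to 1.11), and the endosomal GTPases Rab7a and Rab5b stood at 0.998 (0.960 to 1.04) and 1.04 (0.995 to 1.08).

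Related receptors and ligands were mostly low, and the interval lay within 1.5-fold for 5 of the 11 measured, with 7 above 1 and a median of 0.034 (-0.052 with no level filter). Kitlg, the Kit ligand, had 43.7 TPM with Aβ and 40.8 TPM with DMSO (1.04, 0.982 to 1.10) and Vegfb 39.0 TPM and 37.2 TPM (1.02, 0.899 to 1.17, fractional counts). Flt1, a VEGF receptor, stood at 0.616 (0.322 to 1.15), Pgf at 1.31 (0.755 to 2.30) and Vegfc at 0.798 (0.503 to 1.26). Of genes for other OPC growth factors and their receptors, 14 of 19 lay above 1, with a median of 0.028. Ntrk2, the BDNF receptor, at 158 TPM and 152 TPM, stood at 1.01 (0.980 to 1.03) and Fgfr1 at 1.01 (0.971 to 1.05). The ligands Igf1, Hgf and Fgf2 stood at 0.847 (0.623 to 1.15), 0.850 (0.472 to 1.52) and 1.16 (0.688 to 1.98).

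Transcription factors of the OPC state, with 8 of 14 above 1, had a median of 0.023, and the interval lay within 1.5-fold for all 14. Olig1 and Olig2, lineage factors, stood at 0.985 (0.964 to 1.01) and 1.01 (0.969 to 1.05). Sox5, which keeps OPCs immature in mouse, had 12.5 TPM with Aβ and 11.2 TPM with DMSO (1.10, 0.991 to 1.21), Hes5, a Notch target, stood at 1.10 (0.809 to 1.49) and Id4 at 0.918 (0.787 to 1.07). OPC markers, which lay in the direction of Pdgfra, had 9 of 11 above 1 and a median of 0.073. With the length trend removed 8 lay above and 3 below, with a median of 0.049. The interval lay wholly above 1 for 3 of the 11 and wholly below 1 for 0. Of all measured genes, 49.7% lay above 1. The furthest log2 ratio among the OPC markers was 0.23, and their part in the Pdgfra difference was not tested.

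**Figure D5:**
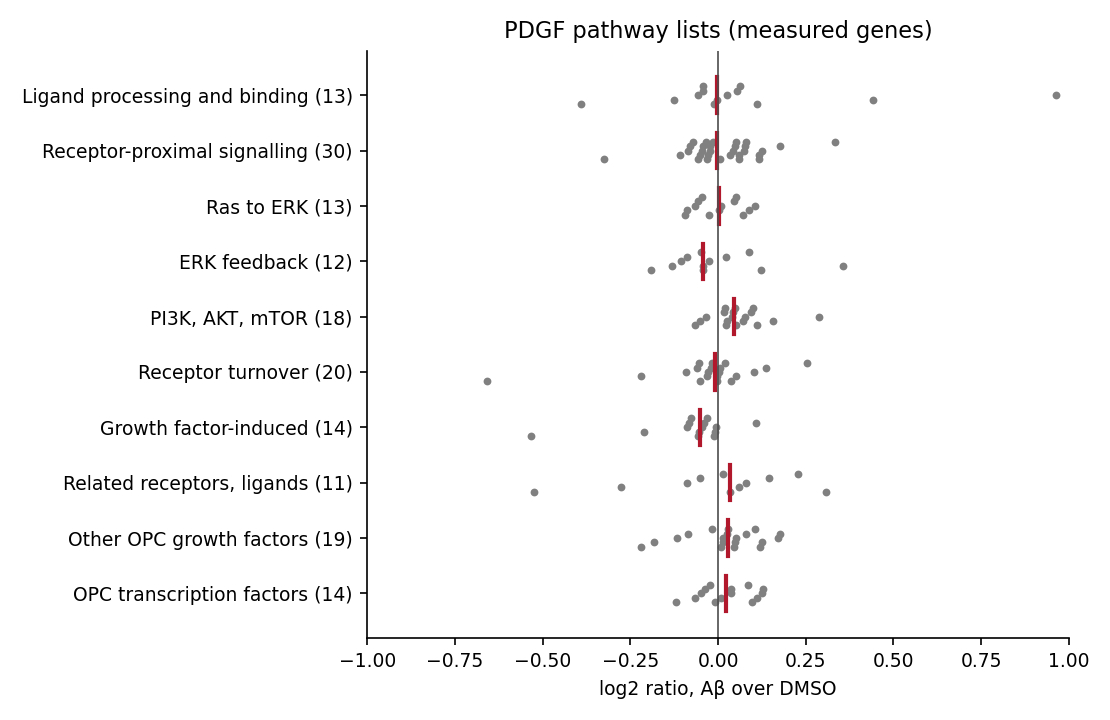
log2 ratio of Aβ over DMSO for each measured gene (points) of the 10 pathway lists, with the number measured in brackets and the list median as a bar. Medians lie between -0.050 for growth factor-induced genes and 0.046 for the PI3K, AKT and mTOR list.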

How the data were processed

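RNA of cultured rat OPCs was sequenced, with 1 library each for Aβ and DMSO. The submitters' processing notes name Bowtie2 and build Rnor_6.0; the quantifier, annotation release and strand setting are not named there. Per the file headers, the authors' table holds estimated counts (expected counts that need not be whole), TPM and FPKM. A further deposited signal column, a normalized read count, was not used. Counts summed to 15117102 and 15019416; the depth sets the counting intervals.

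CPM was computed on TMM library sizes (edgeR 4.0.16, R 4.3.3). Estimated counts were rounded for library factors and for exact Clopper-Pearson intervals of ratios and exact Poisson intervals of levels (SciPy 1.17.1). Such intervals cover counting error only. Log2 ratios carry 0.5 CPM added on both sides, which understates differences of low genes. The interval and the call rule were tried on simulated whole Poisson counts without variation between cultures. This checks the calculation and not the spread of these data. With 1 library per group no test was possible and no p-value was computed. DESeq2 1.42.0 gave alternative size factors.

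The members, the 10 pathway lists and 8 marker lists were chosen with earlier results of these data known. Named are all members, of each list up to 3 measured genes with the largest log2 ratio and up to 2 of the highest TPM, of each marker list up to 2 of the highest TPM, and the 3 genes nearest in level to Pdgfra and Pdgfa; the remaining pericyte and smooth muscle markers, Pdgfrl, and chromosome neighbours were added later. Some genes so taken are not reported here. Of 17202 gene identifiers, 16136 matched the RefSeq table. Promoters are from RefSeq (GRCr8), of which 5 members had one.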

Additional observations from a re-analysis of the deposited data

How the results depend on the processing

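Of 162 values recomputed under another library scaling, unit, pseudocount, level filter, or with the length trend removed (the last chosen after seeing the data), 151 stayed within the counting interval of a member, the 95% interval of a list median, or 1.5 times a count of genes. Log2 ratios ranged from 0.080 to 0.15 for Pdgfra, -0.15 to -0.067 for Pdgfrb and -0.50 to -0.26 for Pdgfa. They ranged from -0.26 to -0.17 for Pdgfc and 0.054 to 1.05 for Pdgfd. No direction turned, but a pseudocount added to both sides cannot turn one, and the library scalings differed little. For Pdgfd, at 5 and 2 counts with a ratio interval of 0.406 to 26.0, the range does not show a difference between libraries. With TPM the log2 ratio of Pdgfra was 0.148 and the medians of Ras to ERK and receptor turnover genes were 0.084 and 0.033, where TPM placed the median of all measured genes at 0.037. With a filter of 10 CPM, which tests fewer genes, 9 genes were higher and 15 lower past 2-fold, and 191 and 163 past 1.2-fold, against 36, 58, 314 and 320. Whole counts alone gave 2 and 10 past 2-fold and 194 and 185 past 1.2-fold. Of 94 genes past 2-fold, 82 had fractional counts. Signs of 5 list medians changed in some settings. With no level filter the median of related receptors and ligands was -0.052, against 0.034, and the other medians that changed sign lay within 0.01 of 0 as reported. No paired analysis was possible because each group is 1 library. Low counts limit Pdgfd and Pdgfb, and also widen the intervals of Pdgfa, Pdgfc and Pdgfrb.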
